A study of Mus musculus with 31 samples.

Results

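Hippocampus of P301S transgenic mice was compared with that of non-transgenic (Ntg) mice in 13 of the 31 samples of the series, 6 labelled P301S+ and 7 labelled P301S-. Every gene with enough counts entered the test, which left 16453 of 48795 genes, and the genes were then read in lists of glial, vascular, blood and neuronal programmes. Each library was bulk RNA from the hippocampus of 1 mouse aged 8 to 9 months by the labels, from 3 females and 3 males with the transgene and 3 females and 4 males without it. The transgene encodes human tau with the P301S mutation under the mouse prion promoter, which is active in neurons and in other cells, and it is present beside the mouse's own tau gene. The mice carry identifiers of a Cgas colony, and the Cgas genotype of these mice is not given in the sources used here. The tissue was taken after perfusion and divided before it was frozen, so a library need not represent the whole hippocampus. The labels and the published methods name different RNA kits and slightly different ages. The other 18 samples were primary microglia in culture, and only their levels after vehicle were used, to see which genes such cultured cells express.

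Libraries held 25953296 to 35779977 counts. Mapt, the tau gene, ran from 519 to 642 CPM (counts scaled to a common library size and composition) in Ntg mice and 858 to 1125 CPM in P301S mice (log2 fold change 0.80 ± 0.07, adjusted p = 1.22e-04, SE, n = 7 and 6). Prnp, the prion protein gene whose promoter drives the transgene, ran from 1086 to 1296 CPM in Ntg mice and 1877 to 2677 CPM in P301S mice (log2 fold change 0.96 ± 0.08, adjusted p = 5.98e-05). Both separated the genotypes as labelled, and counts of Ddx3y, a Y-linked gene, matched the labelled sex in all 13 mice. How many of these reads came from the transgene was not tested. Lamr1-ps1, a processed pseudogene on chromosome 2 at 131904086 to 131904959 of GRCm38, 4968 bases before Prnp, had at most 1 count in an Ntg library and at least 61 in every P301S library, at least 27.4-fold higher with 3 counts per library as the floor. As a pseudogene it can share reads with near-identical copies.

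Microglia, the resident macrophages of the brain, survey healthy tissue with receptors such as P2ry12 and, in tau and amyloid models, turn on phagocytic, lysosomal and antigen-presenting genes such as Itgax, Cst7 and Clec7a. Reactive astrocytes raise the filament gene Gfap and acute-phase genes, and oligodendrocytes in disease can express complement and MHC class I genes. Excitatory synapses of hippocampal pyramidal neurons sit on spines, which hold a postsynaptic scaffold of kinases, receptors and anchoring proteins. In bulk tissue, fewer cells of a type and less RNA per cell cannot be told apart.

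In P301S hippocampus, 229 genes (1.39% of those tested) were higher and 20 (0.122%) were lower at an adjusted p under 0.05, whatever the fold change. All 6 P301S mice were above all 7 Ntg mice in 72 genes (0.438%) and below them in 28 (0.17%). DESeq2 called 697 genes higher (4.24%) and 214 lower (1.3%). At an unadjusted p under 0.05, 1610 of the 16453 genes were higher and 1002 lower. Microglial lists had 39 of 106 tested members higher, astrocyte lists 15 of 53 and oligodendrocyte lists 6 of 45, and none of these members was lower. Lists share genes, so these counts overlap. The 6 oligodendrocyte calls were all in the disease-associated list, and all but Cdkn1a are also in microglial or astrocyte lists. Vascular lists had 1 of 66 members higher, blood and immune lists 0 of 11, and neuronal lists 0 of 169 with 1 lower. The median log2 fold change was 0.93 in the microglial lists, 0.40 in the astrocyte lists, 0.39 in the oligodendrocyte lists, -0.09 in the vascular lists and -0.12 in the neuronal lists, against 0.001 over all genes tested. Calls in lists are those of edgeR unless another tool is named, and limma-voom called 1 list gene, H2-D1. Of the higher genes 166 were in no list, and of the lower genes 19 were in none.

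The P301S mice were not alike. Of the 229 higher genes, P301S mouse 65 was above every Ntg mouse in 229, mice 29 and 36 in 228 each, mouse 77 in 221, mouse 63 in 153 and mouse 43 in 77. Mouse 43 had Mapt at 970 CPM and Prnp at 2157 CPM, both inside the range of the other P301S mice. Without mouse 43, 751 genes were higher and 195 lower. Without mouse 63 the counts were 582 and 109, without mouse 77 they were 329 and 133, and without Ntg mouse 55 they were 200 and 16. Leaving out P301S mouse 29, 36 or 65, or Ntg mouse 35, 46, 61, 62, 68 or 71, left 14 to 24 higher and 0 to 2 lower genes. In each of these 13 fits at least 227 of the 229 higher genes and all 20 lower genes kept their direction. Each fit shared all but 1 of the mice that gave the calls, so a kept direction is no separate support. Itgax, Cst7, C3ar1, Cxcl10, H2-D1, Lgi4, Tifa, Cyp4f14, Mapt, Prnp, Gbp2b, 4930590L14Rik and Lamr1-ps1 were the 13 genes called in every one of the 13 fits, and every other call given here was lost in at least 1 of them. Lgi4, Tifa and Cyp4f14 are named for that reason alone, after their values were seen. Of all genes called in either direction, 216 stayed called in 4 or fewer of the 13 fits. Of the lower genes 0 stayed called in all 13. 4930590L14Rik and Gbp2b both lie on chromosome 3 of GRCm38, at 140951876 to 140953247 and 142594847 to 142619179. Their log2 fold changes in these fits ran from 7.24 to 7.63 and from 8.14 to 10.1. Gbp2b had 0.0724 CPM in Ntg mouse 68 and 0 CPM in the other Ntg mice. The size of its fold change thus rests on Ntg values at or near 0. Whether the position of these 2 genes has a part in their calls was not tested.

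**Figure D1:**
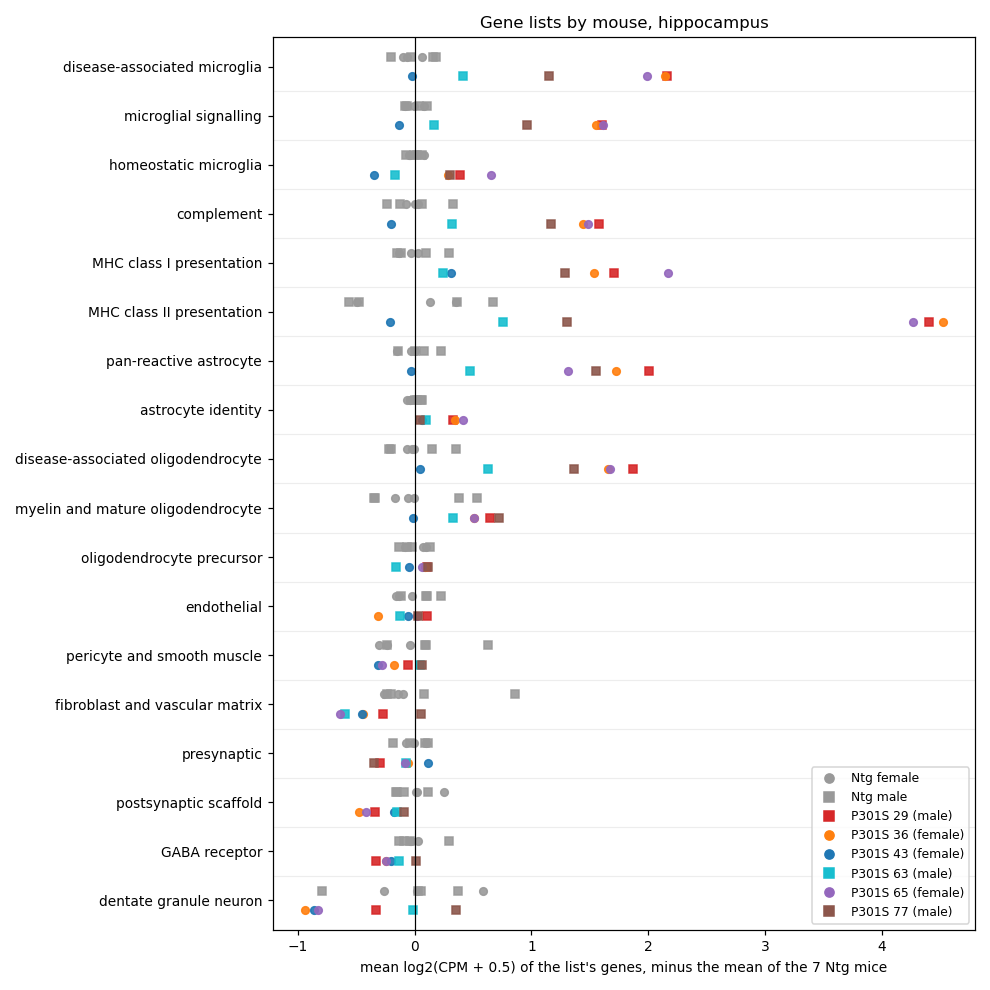
Mean log2(CPM + 0.5) of the tested genes of 18 lists (horizontal axis, log2 units relative to the mean of the 7 Ntg mice), 1 point per mouse; Ntg mice are grey, P301S mice coloured, females circles and males squares. In the MHC class II list P301S mice 29, 36 and 65 lie more than 4 log2 units above the Ntg mean, mouse 77 at 1.30, mouse 63 at 0.75 and mouse 43 at -0.21, while the endothelial points of the genotypes overlap.

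Genes of disease-associated microglia were higher in 9 of 22 members tested. All 22 had a positive log2 fold change, as did 50.4% of all genes, and their median was 1.28. Itgax, which encodes the integrin CD11c, had as lowest, median and highest values 0.124, 0.351 and 0.664 CPM in Ntg mice and 0.771, 22.6 and 58.6 CPM in P301S mice. All P301S mice were above all Ntg mice, with mouse 43 close to them (log2 fold change 6.12 ± 0.87, adjusted p = 0.0102). Cst7, which encodes the protease inhibitor cystatin F, had 0.0933, 0.253 and 0.535 CPM in Ntg mice and 0.631, 17.1 and 39 CPM in P301S mice (log2 fold change 5.90 ± 0.85, adjusted p = 0.0102), again without overlap. Clec7a, the receptor dectin-1, had 0.124, 0.446 and 0.982 CPM in Ntg mice and 0.281, 22 and 45.4 CPM in P301S mice, and mouse 43 lay inside the Ntg range (log2 fold change 5.62 ± 0.88, adjusted p = 0.0156). The chemokine gene Ccl6 rose by 2.92 ± 0.53 (adjusted p = 0.0295) and was above all Ntg mice in 5 of 6. The lipid receptor Trem2 and its adaptor Tyrobp were higher in all 6 P301S mice, Trem2 by 1.70 ± 0.33 (adjusted p = 0.0303) and Tyrobp by 2.0 ± 0.38 (adjusted p = 0.0303). Apoe and Ctsb, the members with the highest mean CPM, did not pass (log2 fold change 0.47 ± 0.18, adjusted p = 0.205, and log2 fold change 0.52 ± 0.13, adjusted p = 0.0615). Trem2 and Tyrobp were chosen after their values were seen.

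Receptors and signalling genes of microglia were higher in 8 of 20 members, with 19 positive and a median of 1.35. Tlr2, a receptor for bacterial lipoproteins, rose by 2.54 ± 0.55 (adjusted p = 0.0371), Cd84 by 2.12 ± 0.40 (adjusted p = 0.0303) and Fcgr2b, the inhibitory Fc receptor, by 1.87 ± 0.34 (adjusted p = 0.0303). Mouse 43 was below all Ntg mice in Tlr2, at 0.561 CPM. Mertk, a receptor for dying cells, had 32 to 45.4 CPM in Ntg mice and 27.8 to 42.3 CPM in P301S mice and was the 1 member with a negative fold change (log2 fold change -0.12 ± 0.11, adjusted p = 0.688). Of 15 lysosomal genes, 3 were higher and all 15 were positive. Lyz2, which encodes lysozyme, rose by 3.51 ± 0.75 (adjusted p = 0.037), Ctss, cathepsin S, by 1.69 ± 0.33 (adjusted p = 0.0303) and Grn, progranulin, by 0.86 ± 0.20 (adjusted p = 0.0451). Grn had 64.8, 70.5 and 73 CPM in Ntg mice and 77.2, 127 and 189 CPM in P301S mice, without overlap. When 1 mouse was left out, the number of higher genes ran from 2 (without Ntg mouse 35 or 61) to 20 (without P301S mouse 43) in the disease-associated list, from 0 to 17 in the signalling list and from 0 to 13 in the lysosomal list. Without P301S mouse 29, 36 or 65 the 3 counts were 3, 0 and 0. DESeq2 called 17, 17 and 12, and the fit with sex as a covariate 6, 3 and 1.

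Homeostatic microglial genes gave no call in either direction among 16 tested, and their median was 0.18. Of these, 12 had a positive log2 fold change and 4 a negative one, P2ry12 and Tmem119 among the negative. In the mean level of the list 4 P301S mice were above all Ntg mice and 2 were below them. P2ry12, the ADP receptor of surveying microglia, had 31.2, 40.9 and 47.2 CPM in Ntg mice and 26.7, 33.2 and 48.6 CPM in P301S mice (log2 fold change -0.15 ± 0.14, adjusted p = 0.687). Tmem119, a surface marker of microglia, had 27.2, 27.6 and 33.8 CPM in Ntg mice and 18.1, 28.2 and 38.9 CPM in P301S mice (log2 fold change -0.06 ± 0.14, adjusted p = 0.89), with 1 P301S mouse above and 3 below all Ntg mice. Both genes overlapped between genotypes and are named as defining markers, outside the rule for named genes. At an unadjusted p under 0.05, 5 homeostatic genes were higher and 1 lower. DESeq2 and the fit without mouse 43 each called 4 homeostatic genes higher and 0 lower.

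**Figure D2:**
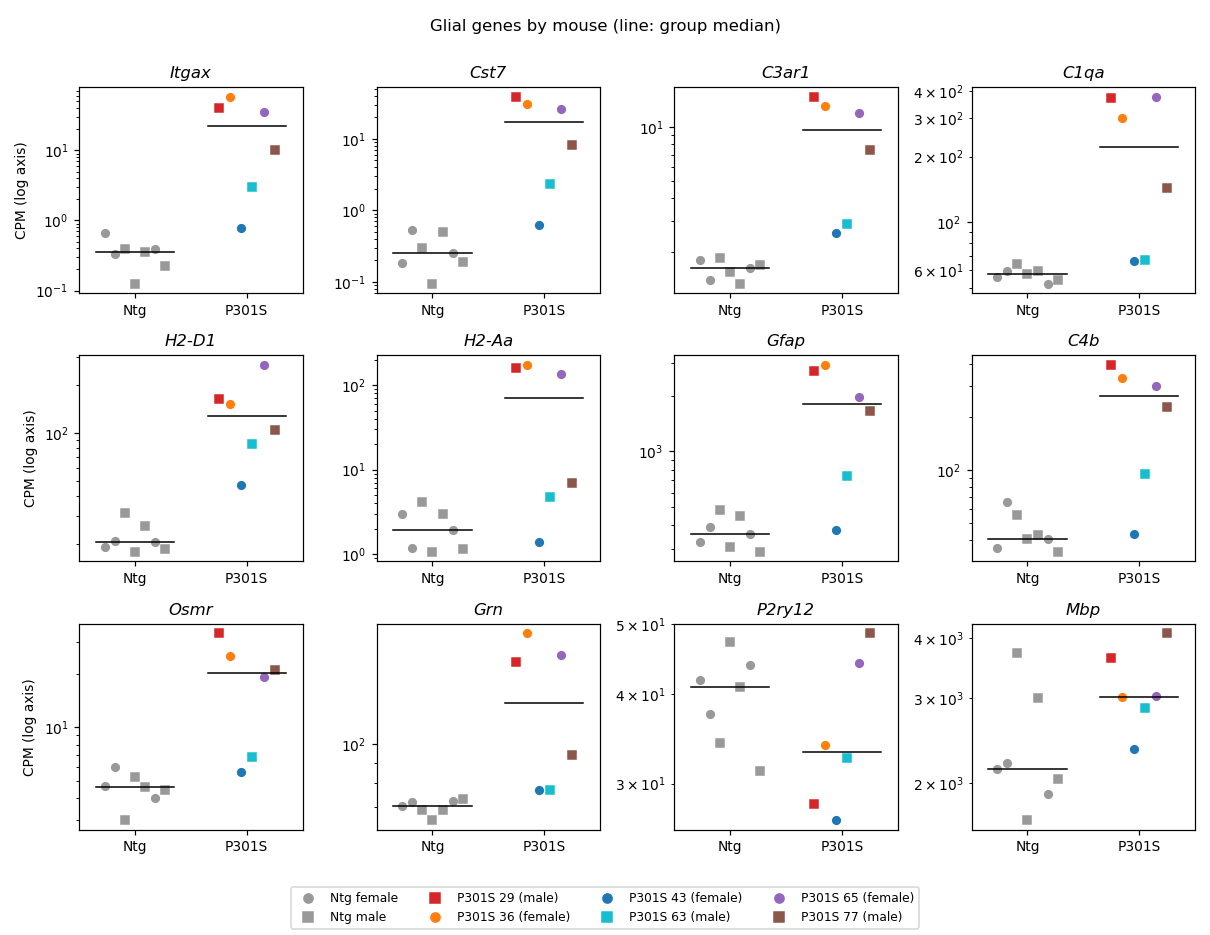
CPM of 12 glial genes by mouse on log axes, with a black line at each group's median (grey, Ntg; coloured, P301S; circles, females; squares, males). P301S mouse 43 is the lowest P301S mouse in 11 of the 12 panels and lies inside the Ntg range for H2-Aa, Gfap and C4b, whereas Itgax, Cst7, C3ar1, C1qa, H2-D1 and Grn separate the genotypes.

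Complement genes, whose products tag synapses and debris for uptake, were higher in 7 of 16 members, with a median of 1.05. The count ran from 1 to 9 when 1 mouse was left out and was 7 with sex as a covariate. The 3 chains of the initiating protein C1q rose together, C1qa by 1.94 ± 0.37 (adjusted p = 0.0303), C1qb by 1.84 ± 0.35 (adjusted p = 0.0303) and C1qc by 1.74 ± 0.32 (adjusted p = 0.0299). C1qa had 51.9, 57.9 and 64.1 CPM in Ntg mice and 66.4, 222 and 377 CPM in P301S mice, and mice 43 and 63 sat just above the Ntg range. C3ar1, the receptor for the C3a fragment, had 1.33, 1.63 and 1.85 CPM in Ntg mice and 2.56, 9.66 and 14.8 CPM in P301S mice, separate in every mouse (log2 fold change 2.44 ± 0.37, adjusted p = 0.0151). C4b, a component that coats targets, had 34.2, 40.7 and 65.5 CPM in Ntg mice and 43.3, 264 and 395 CPM in P301S mice, and mouse 43 alone overlapped the Ntg mice (log2 fold change 2.36 ± 0.40, adjusted p = 0.0206). C3, the central component, had 1.06, 2.28 and 3.04 CPM in Ntg mice and 0.421, 19.4 and 46.8 CPM in P301S mice, with mouse 43 below all Ntg mice and the other 5 above them (log2 fold change 3.26 ± 0.65, adjusted p = 0.0303).

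Antigen presentation genes were called in both classes. MHC class I molecules present peptides on most nucleated cells to CD8 T cells, and class II molecules present them on specialised cells, activated microglia among them, to CD4 T cells. Of 11 class I genes 7 were higher (median 1.58), and of 6 class II genes tested 5 were higher (median 4.72). With sex as a covariate 3 class I and 5 class II genes were higher. The class I count ran from 1 to 10 when 1 mouse was left out. The class II count was 5 or 6 without P301S mouse 43, 63 or 77 or Ntg mouse 55 and 0 without any 1 of the others. The promoters of 2 class II and 2 class I genes are shown because all 4 genes were called higher and each holds the Y box, an element known from promoters of both classes. They are RefSeq windows on GRCm38.p6 from 250 bases before to 50 bases after the gene start, written 5′ to 3′ on the gene's strand, with each CTGATTGG or its reverse complement in capitals. The windows are chr17:34287774-34288073 for H2-Aa (minus strand), chr17:34305617-34305916 for H2-Eb1 (plus), chr17:35262844-35263143 for H2-D1 (plus) and chr17:34000298-34000597 for H2-K1 (minus).
H2-Aa: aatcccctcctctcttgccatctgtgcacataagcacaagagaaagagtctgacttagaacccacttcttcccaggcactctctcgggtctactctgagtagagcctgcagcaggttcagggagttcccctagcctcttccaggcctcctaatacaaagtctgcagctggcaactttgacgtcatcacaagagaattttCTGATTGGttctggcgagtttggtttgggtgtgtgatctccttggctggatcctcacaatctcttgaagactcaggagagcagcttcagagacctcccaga
H2-Eb1: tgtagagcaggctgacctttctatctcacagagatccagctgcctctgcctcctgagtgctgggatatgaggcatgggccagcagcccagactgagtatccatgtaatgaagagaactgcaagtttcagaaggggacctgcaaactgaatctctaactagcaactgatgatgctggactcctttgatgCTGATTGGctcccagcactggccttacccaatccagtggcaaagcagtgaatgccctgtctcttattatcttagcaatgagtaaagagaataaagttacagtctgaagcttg
H2-D1: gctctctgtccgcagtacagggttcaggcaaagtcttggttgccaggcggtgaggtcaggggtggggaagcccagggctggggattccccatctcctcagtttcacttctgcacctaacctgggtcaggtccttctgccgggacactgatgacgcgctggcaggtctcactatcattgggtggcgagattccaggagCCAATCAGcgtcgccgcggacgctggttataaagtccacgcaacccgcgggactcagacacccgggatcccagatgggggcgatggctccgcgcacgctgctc
H2-K1: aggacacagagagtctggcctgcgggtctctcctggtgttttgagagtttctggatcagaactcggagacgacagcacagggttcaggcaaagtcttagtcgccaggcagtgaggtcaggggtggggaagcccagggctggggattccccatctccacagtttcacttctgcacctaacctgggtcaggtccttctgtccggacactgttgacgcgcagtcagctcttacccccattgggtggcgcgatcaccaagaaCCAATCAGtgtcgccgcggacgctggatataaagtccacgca

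The Y box began 51 bases before the gene start in H2-Aa, 62 in H2-Eb1 and 53 in H2-D1, and 8 bases after it in H2-K1. It was in 6 of 9 class I members and 2 of 4 class II members with a window, and in 4.31% of all 27025 promoters. The windows of the class I genes Tap1 and Psmb9 overlap and share 1 site. Among the 181 higher genes with a window 7.18% held it, against 5.79% of tested genes with one. The core of the interferon-stimulated response element (TTTC, 2 bases of any kind, TTTC) was in 13.8% of these higher genes, 2.88% of tested genes and 3.49% of all promoters. A kappa B form (GGGA, 3 bases of any kind, CCC) was in 14.4%, 7.16% and 5.4%. Of the 16 lower genes with a window, 1 held the Y box and 0 held either of the other motifs. Both strands were searched, and a match describes only the letters in these windows.

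H2-D1, a classical class I heavy chain, had 17.7, 20.5 and 31.4 CPM in Ntg mice and 46.6, 128 and 268 CPM in P301S mice, all P301S mice above all Ntg mice (log2 fold change 2.63 ± 0.32, adjusted p = 0.00216). Its adjusted p stayed at or below 0.0113 whichever mouse was left out. H2-K1, another classical heavy chain, had 17, 18.7 and 25.8 CPM in Ntg mice and 25.9, 69.5 and 139 CPM in P301S mice, with the lowest P301S mouse just above the highest Ntg mouse (log2 fold change 1.95 ± 0.35, adjusted p = 0.0281). B2m, the light chain, rose by 1.48 ± 0.31 (adjusted p = 0.0343), Nlrc5, the class I transactivator, by 2.17 ± 0.42 (adjusted p = 0.0303) and the non-classical gene H2-Q7 by 3.51 ± 0.71 (adjusted p = 0.0303). Class I heavy chains are close in sequence, so reads may be split or shared among them.

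Class II genes were low in Ntg mice and high in 3 P301S mice. H2-Aa, an alpha chain, had 1.06, 1.92 and 4.2 CPM in Ntg mice and 1.4, 70.9 and 174 CPM in P301S mice (log2 fold change 5.18 ± 1.0, adjusted p = 0.0303). Mice 29, 36 and 65 lay far above the Ntg mice, mice 63 and 77 narrowly above them and mouse 43 among them. Cd74, the invariant chain, had 2.49, 6.7 and 11 CPM in Ntg mice and 3.89, 189 and 482 CPM in P301S mice in the same arrangement (log2 fold change 5.14 ± 0.99, adjusted p = 0.0303). The beta chains H2-Ab1 and H2-Eb1 rose by 4.76 ± 0.97 (adjusted p = 0.0309) and by 4.69 ± 0.93 (adjusted p = 0.0303). Ciita, the class II transactivator, was too low to be tested and reached 84 counts in 1 P301S library against at most 9 in an Ntg library. Beside them, 11 of 13 interferon response genes were higher (median 2.52), with mice 65 and 77 highest in that list and not mice 29 and 36. The interferon count ran from 1 to 13 when 1 mouse was left out and was 8 with sex as a covariate. The values of Ciita are given because of its role and after they were seen.

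**Figure D3:**
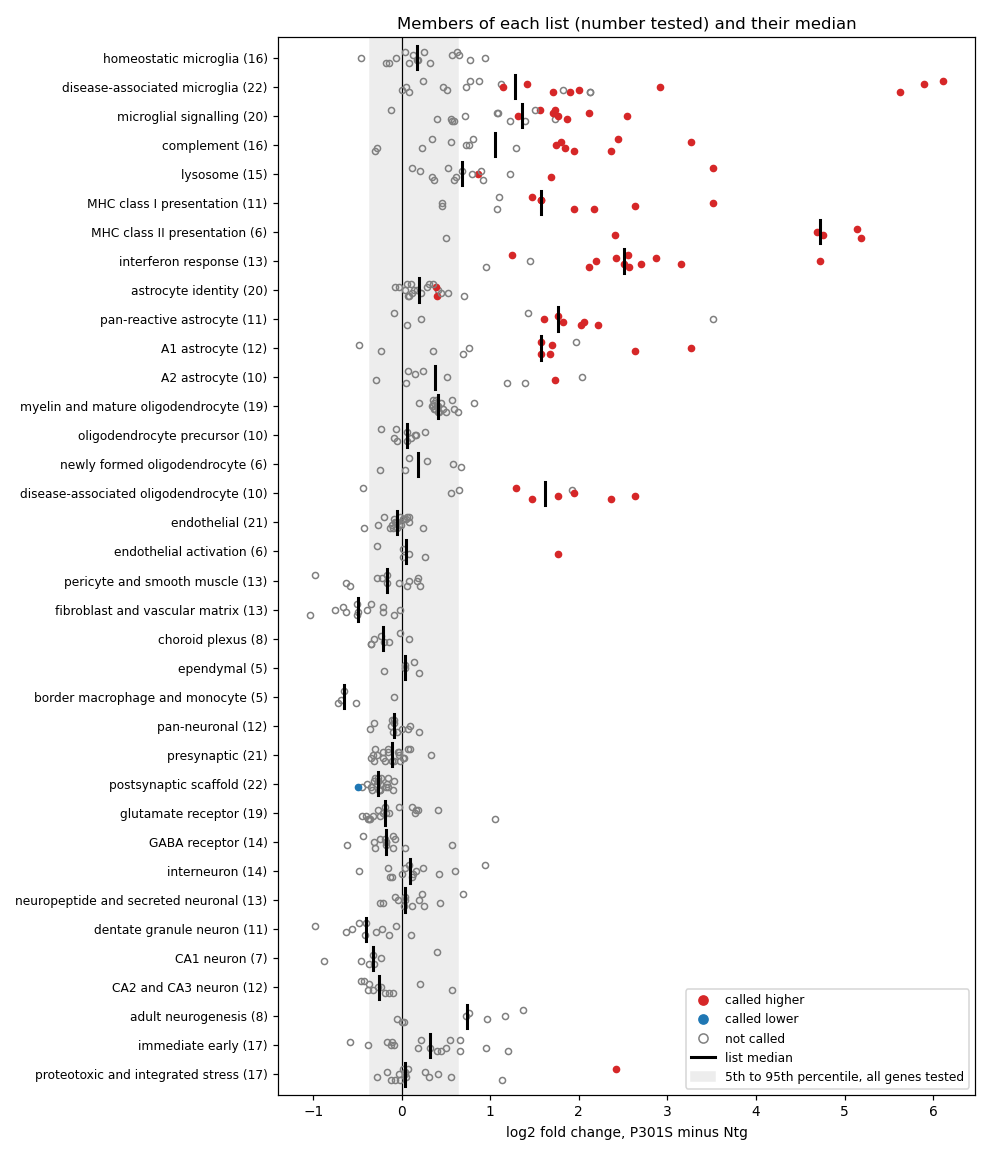
Log2 fold change (P301S minus Ntg, horizontal axis) of every tested member of each list with at least 5 members tested (red, called higher; blue, called lower; open, not called), with the list median as a black bar and the 5th to 95th percentile of all genes tested in grey. Called members of the microglial, MHC and reactive astrocyte lists extend to the right, and all 22 postsynaptic scaffold members lie left of 0.

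Of 11 pan-reactive astrocyte genes tested 6 were higher, 5 were not called and 1 of those had a negative fold change (median 1.76). The count ran from 0 to 9 when 1 mouse was left out and was 5 with sex as a covariate. Gfap, the astrocyte filament, had 287, 358 and 481 CPM in Ntg mice and 379, 1810 and 2927 CPM in P301S mice, and every P301S mouse except mouse 43 was above all Ntg mice (log2 fold change 2.22 ± 0.37, adjusted p = 0.0206). Osmr, the oncostatin M receptor, rose by 2.02 ± 0.35 (adjusted p = 0.0259), Aspg by 2.06 ± 0.36 (adjusted p = 0.0259), Vim, vimentin, by 1.82 ± 0.35 (adjusted p = 0.0303) and Serpina3n, a secreted protease inhibitor, by 1.76 ± 0.38 (adjusted p = 0.0388). Serpina3n in mouse 43, at 31.8 CPM, was below all Ntg mice, and the other 5 were above them.

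Genes of the A1 astrocyte set were higher in 6 of 12 members (median 1.58) and those of the A2 set in 1 of 10 (median 0.38), and the difference between the sets was not tested. When 1 mouse was left out, the A1 count ran from 1 to 8 and the A2 count from 0 to 4. With sex as a covariate they were 3 and 1. H2-D1, C3 and Psmb8 in the A1 set stand also in the class I or complement lists. Gbp2, an interferon-induced GTPase, rose by 1.67 ± 0.36 (adjusted p = 0.0387) and Ggta1 by 1.70 ± 0.33 (adjusted p = 0.0303). The A2 call was Cd14, a lipopolysaccharide co-receptor that is also in the microglial signalling list (log2 fold change 1.73 ± 0.34, adjusted p = 0.0303). Among 20 identity genes (median 0.20) Atp1b2, a sodium pump subunit, rose by 0.38 ± 0.08 (adjusted p = 0.037) and Gpr37l1, an astrocyte receptor, by 0.40 ± 0.09 (adjusted p = 0.0461). These were the 2 identity calls. Their number ran from 0 to 8 when 1 mouse was left out and was 0 with sex as a covariate. Atp1b2 had 639 to 729 CPM in Ntg mice and 705 to 1018 CPM in P301S mice, with 5 P301S mice above all Ntg mice. Glul, glutamine synthetase, had 1482 to 1717 CPM in Ntg mice and 1358 to 2030 CPM in P301S mice and did not pass (log2 fold change 0.07 ± 0.09, adjusted p = 0.771).

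Myelin genes had a positive log2 fold change in all 19 members tested (median 0.41), as did 50.4% of all genes, and none was called in edgeR. At an unadjusted p under 0.05, 13 were higher, against 1610 of all 16453 genes tested. In the mean level of the list 2 of 6 P301S mice were above all Ntg mice. Mbp, myelin basic protein, had 1671, 2138 and 3720 CPM in Ntg mice and 2350, 3023 and 4100 CPM in P301S mice, with 1 P301S mouse above all Ntg mice (log2 fold change 0.41 ± 0.18, adjusted p = 0.282). DESeq2 and the fit without mouse 43 each called 5 myelin genes higher. In edgeR 0 of 10 precursor genes were called, with 1 at an unadjusted p under 0.05 and 0 in DESeq2, and 0 of 6 newly formed oligodendrocyte genes, with 3 and 1, all higher. Without mouse 43, 2 newly formed oligodendrocyte genes were higher. Of the precursor genes 9 of the 10 had a 95% interval within 0.5 log2 units of 0. Of 10 genes known from disease-associated oligodendrocytes 6 were higher (median 1.62), namely C4b, H2-D1, H2-K1, B2m, Serpina3n and Cdkn1a, and all but Cdkn1a stand in microglial or astrocyte lists too. The count ran from 1 to 8 when 1 mouse was left out and was 5 with sex as a covariate. Cdkn1a, a cell cycle inhibitor, rose by 1.29 ± 0.26 (adjusted p = 0.0303).

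Endothelial genes gave 0 calls among 21 in edgeR and in DESeq2, with 1, lower, at an unadjusted p under 0.05. Their median was -0.05, and 17 had a 95% interval within 0.5 log2 units of 0. Flt1, a VEGF receptor, had 45.3, 58.7 and 64.3 CPM in Ntg mice and 43.6, 54.7 and 60.1 CPM in P301S mice (log2 fold change -0.09 ± 0.09, adjusted p = 0.702), almost wholly overlapping. Icam1, an adhesion molecule of activated endothelium that myeloid cells also express, was the 1 call among 6 endothelial activation genes. It had 1.37 to 3.01 CPM in Ntg mice and 2.45 to 13.2 CPM in P301S mice, with 4 P301S mice above all Ntg mice (log2 fold change 1.76 ± 0.36, adjusted p = 0.0321). Vcam1, another adhesion molecule, had 22.4 to 29.3 CPM in Ntg mice and 18.3 to 40.7 CPM in P301S mice (log2 fold change 0.26 ± 0.18, adjusted p = 0.54). The 13 pericyte and smooth muscle genes gave 0 calls in edgeR and in DESeq2, with 1, lower, at an unadjusted p under 0.05, and a median of -0.16. Only 6 of these 13, and 2 of the 6 endothelial activation genes, had a 95% interval within 0.5 log2 units of 0.

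Fibroblast and vascular matrix genes had negative fold changes in 13 of 13 members, as did 49.6% of all genes, with a median of -0.49. Of these, 0 were called in edgeR or DESeq2 and 1 had an unadjusted p under 0.05. Ntg mouse 55 stood apart in their mean level, at 0.86 log2 units above the Ntg mean, and 5 of 6 P301S mice were below all Ntg mice. Fn1, fibronectin, had 44.4 to 84 CPM in Ntg mice and 41.7 to 69.5 CPM in P301S mice (log2 fold change -0.22 ± 0.16, adjusted p = 0.572), and Igf2, a growth factor of meninges and choroid plexus, 57.9 to 259 CPM in Ntg mice and 28.9 to 201 CPM in P301S mice (log2 fold change -0.63 ± 0.48, adjusted p = 0.585). Choroid plexus genes mark a tissue outside the hippocampus. They summed to 740 to 5035 CPM in Ntg mice and 267 to 7860 CPM in P301S mice. How much of that tissue each library held was not measured, and the part of these genes in the matrix result was not tested. Border macrophage and monocyte genes summed to 12.8 to 27.4 CPM and 12.9 to 21.6 CPM, with 0 of 5 called in edgeR or DESeq2, 0 at an unadjusted p under 0.05 and 1 higher without mouse 43.

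Markers of lymphocytes, neutrophils and blood were read beside the microglial and MHC results. Of 14 T and NK cell genes 4 could be tested. In edgeR 0 were called, with 1 higher at an unadjusted p under 0.05, and 1 was higher in DESeq2, without mouse 43 and without mouse 63. The list summed to 2.88 to 5.04 CPM in Ntg mice and 2.94 to 12.5 CPM in P301S mice. Trbc2, a T cell receptor constant gene, had 0.124 to 1.02 CPM in Ntg mice and 0.429 to 4.81 CPM in P301S mice, above all Ntg mice in 4 of 6 (log2 fold change 1.94 ± 0.59, adjusted p = 0.109). Cd3e, a defining T cell gene, had at most 3 counts in an Ntg library and 13 in a P301S library. Neutrophil genes summed to 0.0933 to 1.16 CPM and 0.14 to 1.19 CPM and blood genes to 1.06 to 17 CPM and 0.569 to 25.5 CPM. B cell genes summed to 10.6 to 23.1 CPM in Ntg mice and 15.2 to 65.9 CPM in P301S mice. Ighm, the heavy chain of IgM, was the 1 B cell gene tested and had 10.4, 19.1 and 22.8 CPM in Ntg mice and 14.9, 30.2 and 65.3 CPM in P301S mice, above all Ntg mice in 4 of 6. It did not pass in edgeR (log2 fold change 0.94 ± 0.33, adjusted p = 0.158) and passed in DESeq2 (adjusted p = 0.0499). The part of infiltrating cells in the MHC result was not tested.

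Of 169 neuronal genes tested, 112 had a negative log2 fold change, and Cnih2 alone was called in edgeR. A 95% interval within 0.5 log2 units of 0 was found for 60 of the 169, against 9666 of all 16453 genes tested. A change of that size was thus not excluded for the other neuronal genes. Such intervals were held by 9 of 12 pan-neuronal, 12 of 21 presynaptic, 10 of 22 postsynaptic scaffold, 8 of 14 GABA receptor and 6 of 19 glutamate receptor genes, and by 0 of the 11 dentate granule, 7 CA1 and 12 CA2 and CA3 genes. Pan-neuronal and presynaptic lists had medians of -0.08 and -0.11 and 0 calls in edgeR and DESeq2, with 2 and 3 genes lower at an unadjusted p under 0.05. Syp, the vesicle protein synaptophysin, had 1625, 1883 and 2072 CPM in Ntg mice and 1419, 1743 and 1980 CPM in P301S mice (log2 fold change -0.11 ± 0.09, adjusted p = 0.597). Map2, the dendritic microtubule protein, had 828 to 1485 CPM in Ntg mice and 770 to 1006 CPM in P301S mice (log2 fold change -0.35 ± 0.12, adjusted p = 0.141), and both genes overlapped between the genotypes.

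Postsynaptic scaffold genes had a negative log2 fold change in all 22 members, with a median of -0.26. Cnih2, which encodes the AMPA receptor auxiliary subunit cornichon-2, had 344, 399 and 507 CPM in Ntg mice and 216, 284 and 338 CPM in P301S mice, all P301S mice below all Ntg mice (log2 fold change -0.50 ± 0.11, adjusted p = 0.0437). Its log2 fold change was -0.82 in females alone and -0.23 in males alone. Camk2a, the kinase subunit most abundant in spines, had 4261, 4645 and 6906 CPM in Ntg mice and 2783, 3687 and 4754 CPM in P301S mice, with 4 P301S mice below all Ntg mice (log2 fold change -0.45 ± 0.15, adjusted p = 0.132). Dlg4, which encodes PSD-95 and was chosen after its values were seen, had 985, 1025 and 1170 CPM in Ntg mice and 812, 855 and 1016 CPM in P301S mice, with 5 P301S mice below all Ntg mice (log2 fold change -0.26 ± 0.07, adjusted p = 0.0876). At an unadjusted p under 0.05, 9 of the 22 scaffold genes were lower, against 1002 of all 16453 genes tested. DESeq2 called 5, and leaving out 1 mouse gave 0 to 3, the most without mouse 43.

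Receptor lists gave 0 calls in edgeR and DESeq2, with 5 GABA receptor and 5 glutamate receptor genes lower and 1 of each higher at an unadjusted p under 0.05. Without P301S mouse 77, 3 GABA receptor genes were lower. Of 14 GABA receptor genes 12 were negative (median -0.18), and of 19 glutamate receptor genes 13 were (median -0.19). Gria1, an AMPA receptor subunit, had 854 to 1501 CPM in Ntg mice and 652 to 1423 CPM in P301S mice (log2 fold change -0.38 ± 0.18, adjusted p = 0.323). Gabbr1, a GABA-B receptor subunit, had 883 to 1087 CPM in Ntg mice and 752 to 903 CPM in P301S mice, with 4 P301S mice below all Ntg mice (log2 fold change -0.18 ± 0.07, adjusted p = 0.204). Interneuron genes had a median of 0.10 over 14 members and neuropeptide genes 0.04 over 13, also with 0 calls in either tool, and 2 and 1 members had an unadjusted p under 0.05.

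Genes that mark hippocampal fields varied widely in both genotypes. Dentate granule genes had a median of -0.41 over 11 members, CA1 genes -0.33 over 7 and CA2 and CA3 genes -0.25 over 12. EdgeR called 0 of them, with 3, 1 and 0 lower at an unadjusted p under 0.05, and DESeq2 called 1 CA1 gene lower. Without P301S mouse 77, 1 dentate and 1 CA1 gene were lower. Wfs1, a CA1 marker, had 138, 231 and 277 CPM in Ntg mice and 86.5, 171 and 263 CPM in P301S mice (log2 fold change -0.32 ± 0.23, adjusted p = 0.572), and Nptx1, a neuronal pentraxin, 518, 686 and 1176 CPM in Ntg mice and 426, 528 and 1099 CPM in P301S mice (log2 fold change -0.33 ± 0.22, adjusted p = 0.528). In both genes the Ntg mice alone covered most of the range, and the share of each field in a library was not measured. EdgeR called 0 of 8 neurogenesis genes, with 2 higher at an unadjusted p under 0.05, and DESeq2 called 1 higher, as did the fit without mouse 43. Of 17 immediate early genes edgeR and DESeq2 called 0, with 3 higher and 2 lower at an unadjusted p under 0.05, and 1 was higher without mouse 63. Of 17 stress genes 1 was called, Atf3, a transcription factor induced by injury, which had 0.455, 0.76 and 0.842 CPM in Ntg mice and 0.771, 3.52 and 6.71 CPM in P301S mice, above all Ntg mice in 5 of 6 (log2 fold change 2.42 ± 0.39, adjusted p = 0.0169).

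The 20 lower genes had modest fold changes, and 19 of them were outside the lists. They ranged from Sec24d, a coat protein of the secretory pathway (log2 fold change -0.83 ± 0.17, adjusted p = 0.0321), to Fbxo25, a ubiquitin ligase subunit (log2 fold change -0.25 ± 0.06, adjusted p = 0.0413). Camkv, a kinase-like protein of synapses, had 724, 892 and 992 CPM in Ntg mice and 540, 616 and 793 CPM in P301S mice, with mouse 43 alone inside the Ntg range (log2 fold change -0.45 ± 0.10, adjusted p = 0.0443). Wasf1, an actin regulator, had 442 to 630 CPM in Ntg mice and 290 to 470 CPM in P301S mice, with 5 P301S mice below all Ntg mice (log2 fold change -0.52 ± 0.12, adjusted p = 0.0488). Nsmf, which carries signals from NMDA receptors to the nucleus, had 655 to 1031 CPM in Ntg mice and 526 to 668 CPM in P301S mice (log2 fold change -0.42 ± 0.10, adjusted p = 0.0484). Hrk, a pro-apoptotic gene of neurons, had 53.7, 56.8 and 76.4 CPM in Ntg mice and 40.5, 44.8 and 50.4 CPM in P301S mice, without overlap (log2 fold change -0.42 ± 0.09, adjusted p = 0.0309). Of the 20 genes, P301S mice 29, 36 and 65 were below every Ntg mouse in 20, mouse 63 in 19 and mice 43 and 77 in 14. The genes were called from these same mice, so low values in each of them follow in part from that choice.

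**Figure D4:**
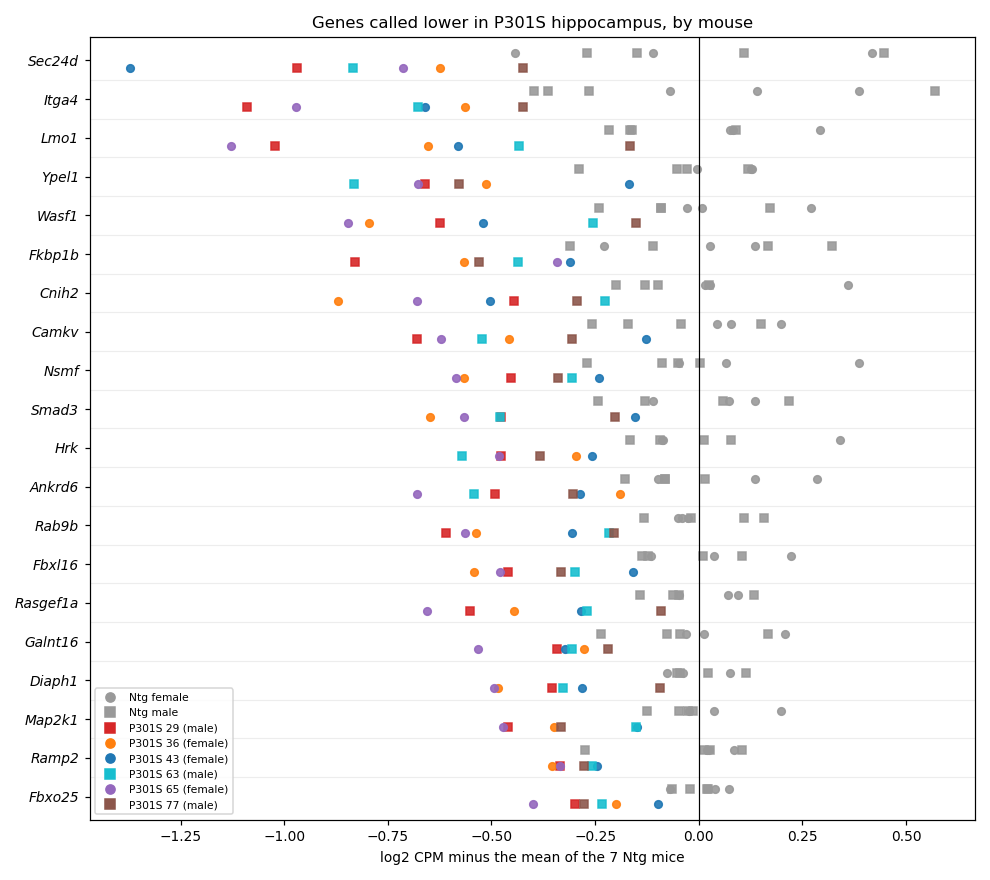
Log2 CPM of the 20 genes called lower (horizontal axis, relative to the mean of the 7 Ntg mice), 1 point per mouse; Ntg mice are grey, P301S mice coloured, females circles and males squares. Mice 43 and 77 each lie below every Ntg mouse in 14 of these 20 genes, which were called from a comparison that included both mice.

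Levels in cultured microglia came from samples that the hippocampal comparison did not use. In wild-type primary microglia given vehicle (n = 3), 171 of the 229 higher genes (74.7%) had at least 10 CPM, against 49.5% of 16426 tested genes and 7 of the 20 lower genes. Under 1 CPM were 40 higher genes, among them Gfap at 0.717 ± 0.374 CPM (SD) and Osmr at 0.121 ± 0.139 CPM. H2-Aa at 0.314 ± 0.144 CPM, H2-Eb1 at 0.449 ± 0.0551 CPM and C4b at 0.226 ± 0.0455 CPM were also under 1 CPM. Of the other called class II genes, H2-Ab1 had 1.59 ± 0.395 CPM, Cd74 10.4 ± 0.619 CPM and H2-DMb1 35.5 ± 3.81 CPM. Other genes called in astrocyte or oligodendrocyte lists were well expressed in culture. Vim had 2618 ± 31.8 CPM, Cdkn1a 515 ± 32.1 CPM, Ggta1 94.2 ± 2.14 CPM and Gbp2 64.9 ± 29.4 CPM, whereas Serpina3n had 0.820 ± 0.184 CPM. Itgax had 492 ± 35.3 CPM, Clec7a 1213 ± 59.4 CPM and Cst7 25.5 ± 2.76 CPM.

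Genotype differences were also read by sex. No gene passed for a sex by genotype interaction in edgeR (0% of genes, smallest adjusted p = 0.0836). Of the 16453 genes tested, 3897 had an unadjusted p under 0.05, DESeq2 called 1087 and limma-voom 0. In simulated data the edgeR interaction test recovered 0% of log2 changes of 0.5, 21.4% of those of 1 and 76.5% of those of 2. The absence of a call thus does not exclude an interaction. Of the 229 higher genes 226 had the same direction in females and in males, and so did all 20 lower genes. They were called from the same mice, so a shared direction follows in part from that choice and is no separate test. Males alone gave 1 higher and 0 lower calls, and females alone 325 and 593. Itgax had log2 fold changes of 6.10 in females and 5.99 in males, and Gfap 2.29 and 2.14.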

How the data were processed

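Gene-level read counts of the hippocampal libraries were used as deposited by the authors. Per the labels, libraries were prepared with QuantSeq 3′ FWD. The submitters' processing notes name the build GRCm38, edgeR and limma, and the aligner and counter are not given in the sources used here. Counts were whole numbers, and symbols were taken by gene identifier from the microglial count table, with 326 hippocampal identifiers left without one. Groups followed the labels. Genes were filtered with filterByExpr by group, scaled by TMM and tested with the quasi-likelihood F test of edgeR 4.0.16 in R 4.3.3, with Benjamini-Hochberg adjustment over all 16453 genes and no covariate. Standard errors were the log2 fold change over the square root of F. CPM values took the TMM factors into the library size. Mean list levels used log2(CPM + 0.5), and CPM of the microglia were read without a test.

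Genes and lists were chosen with earlier results of these data known. Named genes were the 15 largest rises and the 15 largest falls with a mean count of at least 20 in the higher group, up to 4 called members of each list by size of fold change and up to 2 by mean CPM, Mapt, Prnp and the sex check. The text gives a selection of these, and others are marked where they occur. Some genes that the rule names are not reported here. Alternatives were DESeq2 1.42.0, voom in limma 3.58.1, RLE scaling, no filter, sex as a covariate, a fold change limit, each sex alone and leaving out each mouse. The fits were tested on simulated data with known changes. No pair of libraries of a group agreed within sampling noise. Floors cover counting error only. The p-values measure the spread between mice.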

Additional observations from a re-analysis of the deposited data

Results flagged for a closer look

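In groups of 6 or 7 mice, chance sets about 1 in 20 apart from the rest by the gap used here (Dixon's 95% value). Of 172 groups examined 13 were flagged, and all 13 are given below. Which of them are due to chance was not tested. Ntg mouse 55 stood above the other Ntg mice in Vim (64.1 CPM, others 27.9 to 36.1), Gbp2 (6.21 CPM, others 3.14 to 4.24) and Ggta1 (5.55 CPM, others 3.66 to 4.25). The same mouse was highest in the mean log2 CPM of the interferon response list (1.66, others 1.13 to 1.35) and of the fibroblast and vascular matrix list (4.95, others 3.83 to 4.17). Ntg mouse 46 was highest in Camk2a (6906 CPM, others 4261 to 5317), Cnih2 (507 CPM, others 344 to 402) and C1qc (53.6 CPM, others 36.9 to 42.9). Ntg mouse 62 was highest in Ccl6 (2.81 CPM, others 1.16 to 1.80) and Fcgr2b (3.86 CPM, others 3.03 to 3.32), and Ntg mouse 71 was lowest in Cd84 (1.40 CPM, others 2.15 to 2.67). Gbp2b had 0.0724 CPM in Ntg mouse 68 and was at 0 in the other Ntg mice. P301S mouse 63 was highest in Nptx1 (1099 CPM, others 426 to 591).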

How the results depend on the processing

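The number of called genes depended on the tool and on single mice. Against 229 higher and 20 lower genes in edgeR, DESeq2 called 697 and 214, limma-voom 10 and 1, the fit with sex as a covariate 129 and 9, females alone 325 and 593 and males alone 1 and 0. The calls in females alone included 38 of the 229 and 7 of the 20. A fold change limit left 6 lower genes. Leaving out 1 mouse gave 14 to 751 higher and 0 to 195 lower genes. For the sex by genotype interaction, with 0 genes called in edgeR, DESeq2 called 1087, the fit without a filter 58, and leaving out 1 mouse gave 0 to 1648. Of the genes named, Mertk (0.12) and Fn1 (0.24) had a positive log2 fold change in females alone, as had Wfs1 (0.046) there and Nptx1 in males alone (0.18), and Tmem119 ran from -0.184 to 0.035 when 1 mouse was left out, positive without P301S mouse 36. None of these was called in the main comparison, and the cause was not tested. No paired analysis was possible because no mouse number is shared between the P301S and Ntg groups. Genes with few counts, such as Ciita and most T cell markers, could not be tested at this depth.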

Other observations

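Choroid plexus genes differed widely between mice. Their mean log2(CPM + 0.5) was 4.37 in P301S female 36, 2.71 in female 43 and 3.41 in female 65, and 6.24, 4.58 and 7.07 in P301S males 29, 63 and 77. The 3 Ntg females had 6.21, 4.20 and 6.30 and the 4 Ntg males 5.84, 4.33, 6.29 and 5.05, so the P301S groups did not overlap by sex while the Ntg groups did. The genes with the smallest adjusted p for a sex by genotype interaction were Slc29a4 (male minus female log2 fold change 1.52 ± 0.21, adjusted p = 0.0836) and Trpm3, a channel gene of choroid plexus (2.16 ± 0.31, adjusted p = 0.0836), and neither passed. They were named after their values were seen.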
